A study of Mus musculus with 8 samples.

Results

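The induction of a mouse pre-B cell line over 24 h was followed in the line labelled Tet2 knockdown, by comparing its 2 arrays taken at 24 h with its 2 arrays taken at 0 h. These are 4 of the 8 arrays of the study and were selected by their sample titles alone. The cells were C10, derived from the established pre-B line HAFTL and fitted with C/EBPα, a transcription factor, in an inducible form, and they expressed a short hairpin RNA against the Tet2 transcript. The cells at 0 h were uninduced. The cells at 24 h had been kept in the same medium with 100 nM β-estradiol and with both IL-3 and M-CSF, each at 10 ng/ml, so hormone and cytokines were added together and their shares cannot be told apart. The other 4 arrays hold the same time points of a C10 line with a control hairpin. They served to estimate the spread and to test where the induction differed between the lines.

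All cells derive from 1 transformed line, and the series design describes the 2 arrays of a group as technical duplicates. No p-value given here covers differences from culture to culture, since only duplicate arrays enter the spread. RNA was pooled over the cells of a culture, so fewer cells of a type and less RNA per cell cannot be told apart in any value given here.

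C/EBPα is a basic leucine zipper factor that drives granulocyte and monocyte development, and its forced activation turns B cell precursors into macrophage-like cells. The B cell programme in such precursors is held by Pax5, Ebf1 and Tcf3, the myeloid programme by PU.1 (Spi1) and C/EBP factors, and the switch is accompanied by exit from the cell cycle. TET2 is a dioxygenase that oxidises 5-methylcytosine and is often mutated in myeloid disease. The study set a control hairpin beside a Tet2 hairpin in this system.

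Tet2 itself was measured first, as the check of the label. Its level, given throughout as log2 of the processed signal over the 75th percentile of the same array, was -1.51 and -1.30 at 0 h and -0.07 and 0.06 at 24 h on slides 1 and 2. The duplicate values stayed well apart between the time points, and Tet2 rose 2.64-fold (log2 change 1.40 ± 0.10 (SE), n = 2 arrays per group, adjusted p = 7.5e-05 by limma with Benjamini-Hochberg adjustment). The control line had -1.23 and -1.36 at 0 h and -0.03 and 0.01 at 24 h, so at each time the values of the lines overlapped. The rise of Tet2 differed between the lines by 0.11 (95% confidence interval -0.24 to 0.46, adjusted p = 0.635). By this probe the Tet2 level thus showed no clear difference between the lines, and the difference in level was not tested. The line that carries the Tet2 hairpin is called by its label here. A second Tet2 probe, well above background on all 8 arrays, changed by 1.53. One more, above background on 4 of 8, changed by -0.09.

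The probe for Cebpa was not well above background on any of the 8 arrays, so neither the endogenous transcript nor the introduced one was measured by it. The 8 pre-B markers, among them Cd79a, Cd79b, Vpreb1, Igll1, Pax5, Ebf1 and Rag1, were all above background in these cells before induction. Of the 8 macrophage markers 7 were measured and 6 rose (Csf1r, Cd14, Lyz2, Mpeg1, Fcgr3 and Cd68), against 16.7% of all genes tested. Itgam, which encodes the CD11b chain, had 1.38 and 1.08 at 0 h and 1.42 and 1.45 at 24 h and did not pass the test. Adgre1, which encodes F4/80, was not measured above background on both arrays of any group. The summed linear level of the macrophage markers was 7.32 and 6.68 times the 75th percentile at 0 h and 890 and 806 at 24 h. The summed pre-B markers were 503 and 433 at 0 h and 375 and 356 at 24 h. Of these 8 markers 3 fell and none rose, against 15.4% and 16.7% of all genes tested. The log2 changes of those 3 were -4.68 for Rag1, -2.40 for Ebf1 and -1.44 for Pax5. The sum is carried by the brightest, Vpreb1 and Cd79b, which changed by -0.30 and -0.25 without a call.

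Between 47.4% and 55.6% of the probe spots were well above background per array, no spot was saturated, and the number of arrays limits the precision. The 2 arrays at 24 h had the lowest 75th percentiles of the 8, at 722 and 896 intensity units, against 1039 and 1435 for the 2 at 0 h. The part of this in the results was not tested. Duplicate arrays correlated at 0.992 at 0 h and 0.994 at 24 h across genes, and the median standard error of a change was 0.10. Of 16153 genes tested, 2700 (16.7%) rose and 2494 (15.4%) fell, so 32.2% were called with an adjusted p under 0.05 and at least a 2-fold change. The 5189 called genes that had values on both slides moved the same way on both, and 4737 of them changed at least 2-fold on each slide alone. The calls came from these same arrays, so this agreement is no separate test. Scaling by the array median in place of the 75th percentile moved the median change of all genes from 0.14 to -0.11. Higher genes then made up 39.1% of the calls instead of 52.0%, with 2172 that rose and 3386 that fell.

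**Figure D1:**
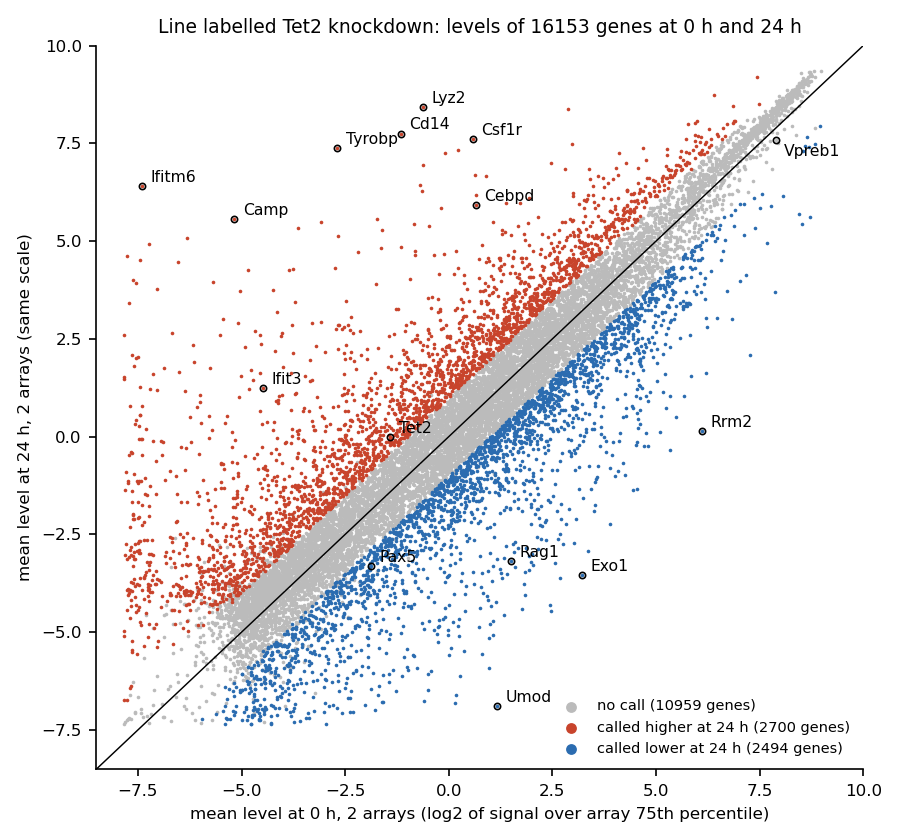
Mean level at 24 h against mean level at 0 h in the line labelled Tet2 knockdown, on the log2 scale of signal over the array's 75th percentile; each point is 1 of 16153 genes and the line marks equal levels. The 2700 called rises lie above the line and the 2494 called falls below it, with myeloid genes such as Tyrobp and Lyz2 far above and Exo1 and Rag1 far below.

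Of the called genes measured at both times, 2392 rose and 2220 fell. Among these rises 1566 lay between 2-fold and 4-fold, 675 between 4-fold and 16-fold, 102 between 16-fold and 64-fold and 49 above 64-fold. The falls numbered 1521, 554, 136 and 9 in the same classes. In 287 of the called rises no array at 0 h was well above background, and in 269 of the called falls no array at 24 h was. The folds of such genes named below are minimum folds, set against the lowest signal well above background on the dim arrays.

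The largest rises among genes measured on all 4 arrays were led by Tyrobp, the adaptor DAP12 that couples myeloid receptors to Syk. Its level was -2.68 and -2.70 at 0 h and 7.38 and 7.35 at 24 h, a 1066-fold rise (log2 change 10.06 ± 0.10 (SE), adjusted p = 5.2e-07 by limma). P2ry6, a receptor for uridine nucleotides, went from -4.87 and -4.82 to 4.24 and 4.26. Lyz2, a lysozyme of phagocytes, went from -0.61 and -0.65 to 8.48 and 8.36. In each of these genes the duplicates lay close together and the 2 times far apart. The chemokine gene Ccl6 rose 503-fold, Cd14, the co-receptor for lipopolysaccharide, 479-fold, and Cd74, the invariant chain of class II presentation, 385-fold.

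Cd300ld and Fcer1g, a myeloid receptor and the common Fc receptor gamma chain, rose 278-fold and 267-fold. Fcer1g had -4.38 and -3.16 at 0 h, a wide spread for duplicates, and 4.33 and 4.26 at 24 h. Tgfbi, an extracellular matrix protein, rose 224-fold, the cytokine gene Il6 166-fold, the fatty acid hydroxylase gene Cyp4f18 163-fold and Kcne3, a potassium channel subunit, 161-fold. A probe with no gene name at chr8:74512371-74512430 (mm9, as in the file) rose 190-fold. The probe named Atf7 rose 254-fold, but the other kept probe of that gene changed by -0.05, so the name is uncertain. The same caution applies to Plppr3, where 1 probe rose 157-fold and another changed by -1.65.

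Among genes that were not above background at 0 h, the largest bound belonged to Ifitm6, of the interferon-induced transmembrane family. Its level was -7.16 and -7.62 at 0 h and 6.47 and 6.33 at 24 h, at least 3857-fold higher. Hp, which encodes haptoglobin, was at least 1541-fold higher and Ccl2, a monocyte chemoattractant, at least 1399-fold higher. Ifitm1 was at least 1120-fold higher, the predicted gene Gm7676 1050-fold, Emilin2, a matrix glycoprotein, 987-fold and Ifi202b, a DNA-binding interferon-inducible protein, 739-fold. For Il1b the bound was 698-fold, for Ccm2l 627-fold and for Mmp8, the neutrophil collagenase, 490-fold. Members of the Ifitm, Ifi200, Oas1, lysozyme, C-type lectin and histone families have near-identical copies, and probes were not matched to a genome here, so signal may be shared between copies.

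The largest fall measured on all 4 arrays was that of Exo1. This gene, an exonuclease of mismatch repair and recombination, went from 3.26 and 3.15 to -3.38 and -3.70, a 107.5-fold fall (log2 change -6.75 ± 0.13 (SE), adjusted p = 1e-06 by limma). Rad51ap1, a protein of homologous recombination, fell 78.6-fold, and Pbk, a mitotic kinase, 77.6-fold. Mcm10, a replication initiation factor, fell 68.6-fold, and Rrm2, the small subunit of ribonucleotide reductase, 62.1-fold. Rrm2 had 6.03 and 6.18 at 0 h and 0.12 and 0.18 at 24 h, with no overlap.

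Ska1, a kinetochore protein, fell 59.2-fold, Tk1, thymidine kinase, 58.3-fold, Shcbp1 55.7-fold and Pole, the catalytic subunit of DNA polymerase epsilon, 53.85-fold. The linker histone gene H1f5 fell 51.2-fold, the kinase gene Melk 47.8-fold, Fignl1 42.4-fold and Psmc3ip, a recombination cofactor, 40.9-fold. The probe NAP014486-001 on chromosome 19 and the transcript probe ENSMUST00000153298 on chromosome 11 carry no gene name and fell 56.0-fold and 45.6-fold. Of genes not above background at 24 h, Umod fell at least 73.0-fold, Megf10 at least 53.3-fold, Bves at least 37.0-fold and the repair gene Rad54b at least 36.0-fold. An unnamed probe at chr4:39842177-39842236 (mm9) fell at least 39.4-fold.

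**Figure D2:**
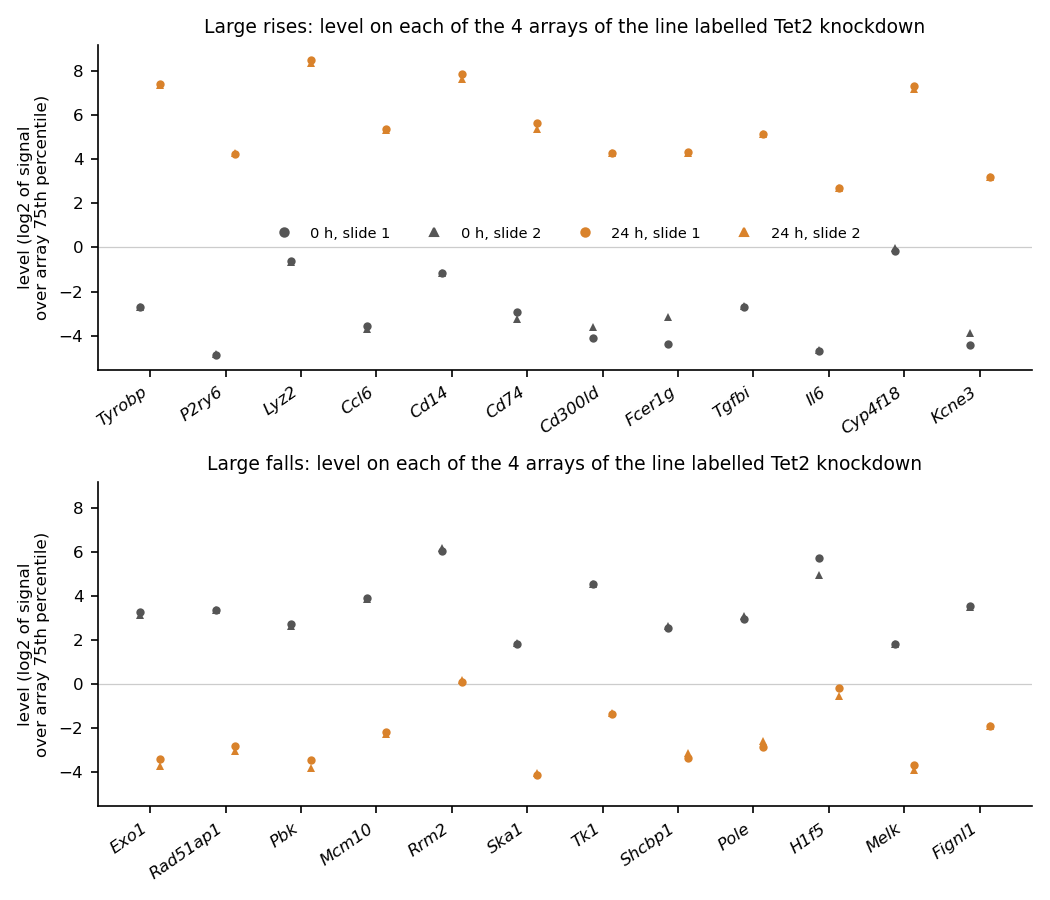
Level of 12 genes with large rises and 12 with large falls on each of the 4 arrays of the line labelled Tet2 knockdown (vertical axis, log2 of signal over the array's 75th percentile; grey, 0 h; orange, 24 h; circles, slide 1; triangles, slide 2). In every gene drawn the times do not overlap, and Fcer1g has a wide spread between its 2 arrays at 0 h (-4.38 and -3.16).

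Over all genes tested 16.7% rose and 15.4% fell, and each list count below stands beside these shares. Myeloid transcription factors rose as a group: 14 of 21 measured members rose and none fell, with a median change of 1.58 against 0.14 over all genes. The largest was Id2, an inhibitor of E proteins, which went from -1.08 and -1.03 to 2.67 and 2.74, a 13.5-fold rise. Tfec, a relative of MITF, was at least 5.68-fold higher, Stat3, a transducer of cytokine signals, rose 5.58-fold and Rara, a retinoic acid receptor, 4.28-fold. Spi1, which encodes PU.1, changed by 2.06 and passed the test, whereas Irf8 changed by 0.88 and Runx1 by 0.50 and neither was called.

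Within the C/EBP family, 5 members were measured. Cebpd rose 38.4-fold from 0.67 and 0.65 to 5.90 and 5.95. Cebpb rose 8.59-fold. Both are known to follow C/EBPα in myeloid cells. Cebpz fell 2.25-fold, a call lost without array 2 at 0 h or array 1 at 24 h, and Cebpg changed by -0.20 without a call. Of the AP-1 factors, which pair with C/EBP and other leucine zipper proteins, 10 of 13 rose and none fell. Fos rose 33.2-fold, Fosl2 33.4-fold, Batf2 14.1-fold and Junb 4.25-fold.

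Receptors for growth factors and cytokines were next in the order of the pathway. Of 19 measured, 17 rose and 1 fell. Csf1r, the receptor for the M-CSF in the induction medium, had 0.52 and 0.63 at 0 h and 7.67 and 7.55 at 24 h, a 131-fold rise. Csf2rb and Csf2rb2, the beta chains shared by the receptors for IL-3, IL-5 and GM-CSF or used by IL-3 alone, rose 19.4-fold and 13.7-fold. Il1r2, the decoy receptor for IL-1, rose 18.3-fold. Csf3r, the receptor for G-CSF, was the member that fell, by 2.15-fold, from 4.84 and 4.61 to 3.61 and 3.63, a call lost without array 1 at 0 h.

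Activating immunoreceptors and their adaptors rose in 11 of 13 measured cases, with a median of 5.42 and no fall. Besides Tyrobp, Fcer1g and Cd300ld, Fcgr1, the high-affinity receptor for IgG, was at least 188-fold higher. Syk changed by -0.20 and Trem1 by 0.67, neither with a call. Inhibitory receptors rose in 10 of 12 cases: Pilra was at least 289-fold higher, the sialic acid receptor Cd33 at least 276-fold and Pirb at least 79.0-fold.

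Pattern recognition receptors followed the same direction. Of 11 C-type lectins, 9 rose and 1 fell. Clec7a, the beta-glucan receptor dectin-1, rose 18.0-fold, Clec10a was at least 54.8-fold higher, Clec4d at least 23.6-fold and Clec4a1 at least 14.3-fold. Mgl2 fell 4.11-fold. Of 14 Toll-like receptors and adaptors, 11 rose and none fell. Tlr1 rose 20.4-fold and Tlr2 15.7-fold. Tlr13 had -5.87 and -2.98 at 0 h, the widest spread among the members named here, and -0.79 and -0.72 at 24 h.

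Receptors for complement, chemoattractants and nucleotides rose in 15 of 17 cases. After P2ry6, the complement stabiliser Cfp (properdin) rose 137-fold, the fatty acid receptor gene Gpr84 119-fold and C3ar1, the receptor for C3a, at least 67.5-fold. Of 8 measured scavenger receptors 6 rose, with Cd68 12.2-fold, Cd36 10.73-fold, Msr1 at least 2.05-fold and Scarb1 2.17-fold. Another 7 members of that list were not above background. The count of scavenger receptors that rose fell to 3 with normexp background correction and quantile normalization.

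Of 14 measured granule proteins 12 rose and none fell, while 10 other members of the list were not above background. The median was 5.74, or 5.48 with members that were dim at 0 h at their bound, and it was 1.40 with no filter on dim probes. Camp, the cathelicidin of neutrophil granules, had -5.13 and -5.22 at 0 h and 5.54 and 5.57 at 24 h, a 1697-fold rise, with 1 of the 2 arrays at 0 h not well above background. Prtn3, proteinase 3, rose 88.2-fold from -4.81 and -4.72 to 1.69 and 1.71. Elane, which encodes neutrophil elastase, rose by 1.25 on the log2 scale, and Ctsg and Chil3 changed by 0.34 and -0.30 without a call. Mpo, myeloperoxidase, and Ltf, lactotransferrin, were not above background on any of the 8 arrays. Of the 6 neutrophil markers 3 were measured and rose. Their summed linear level was 0.362 and 0.350 at 0 h and 47.6 and 48.5 at 24 h. The granule list holds genes of neutrophils and monocytes alike, and the part of either cell type was not tested.

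Proteins of the S100 and annexin families, which bind calcium and membranes, rose in 13 of 15 cases. S100a4 rose 77.7-fold from -0.83 and -0.88 to 5.43 in both duplicates. Anxa2 was at least 25.4-fold higher, Anxa1 rose 11.8-fold and Anxa5 6.58-fold. Lysosomal genes rose in 22 of 30 cases, led by the cathepsins Ctsc (23-fold), Ctsd (11.1-fold), Ctsb (9.40-fold) and Ctsz (6.59-fold). All 4 are proteases of the endosome and lysosome. Of the 6 NADPH oxidase subunits, which make superoxide in phagocytes, 5 rose: Ncf1 39.9-fold, Cybb 11.7-fold, Cyba 4.29-fold and Ncf4 3.86-fold among them.

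Of 10 measured chemokines 7 rose, against 16.7% of all genes tested, while 11 other members of the list were not above background. Members bright only at 24 h passed the filter and members dim throughout did not, which favours rises. The median was 4.35, and 0.99 with no filter on dim probes, against 0.49 of all genes there. Ccl9 rose 54.3-fold and Ccl3 23.2-fold, in addition to Ccl2 and Ccl6 above. Ccl5 changed by 0.99 and Cxcl11 by -0.28 without a call. Of 6 measured chemokine receptors 4 rose, among them Ccr2 by 61.1-fold and Cx3cr1 by at least 17.6-fold. Another 9 receptors were not above background, and the median of 4.10 became 0.59 with no filter. Cxcr4, the receptor that holds B cell precursors in the marrow, fell 6.47-fold, from -0.38 and -0.27 to -3.08 and -2.96. Cytokine and inflammasome genes rose in 19 of 22 cases, with Ebi3 36.9-fold higher and Il1rn, the IL-1 receptor antagonist, at least 196-fold higher.

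Adhesion genes changed less uniformly. Of 20 integrins and adhesion molecules 9 rose (45%, against 16.7% of all genes) and none fell. Itgal, the alpha chain of LFA-1, rose 21.1-fold and Itgb7 66.3-fold, while Itgax was at least 14.3-fold higher. Of the actin regulators and phagocytic cup genes 14 of 24 rose, including Myo1f (48.0-fold), Capg (7.42-fold), Plek (5.94-fold) and Evl (5.55-fold).

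**Figure D3:**
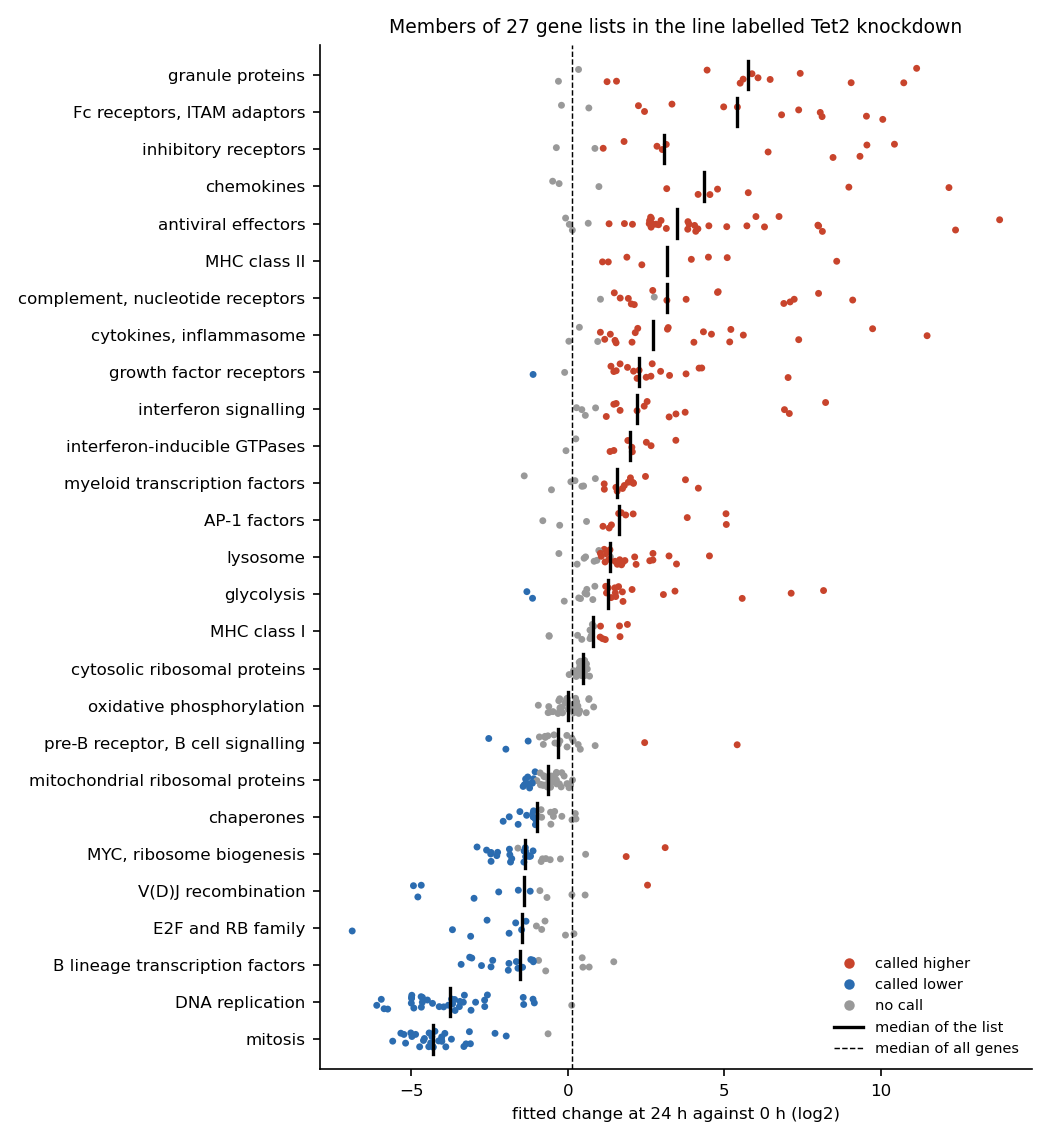
Fitted log2 change at 24 h against 0 h for the members of 27 gene lists in the line labelled Tet2 knockdown; each point is a gene, the black bar is the list's median and the dashed line the median of all genes, 0.14. Medians run from 5.74 for granule proteins to -4.30 for mitosis, and the cytosolic ribosomal proteins form a narrow band with no call.

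Most interferon-related genes rose. Cells respond to type I interferon through IFNAR, the kinases TYK2 and JAK1, and a complex of STAT factors and IRF9 that binds the interferon-stimulated response element in target promoters. Of 17 measured genes of the signalling chain 13 rose and none fell. Irf7, a factor that amplifies the response, had -7.11 and -6.98 at 0 h and 1.25 and 1.12 at 24 h, at least 104-fold higher. Usp18, a negative regulator at IFNAR, went from -4.70 and -4.38 to 2.38 and 2.37, a 121-fold rise. Irf9 rose 13.4-fold. Socs3, an inhibitor of JAK signalling that IL-6 family cytokines induce, rose 135-fold. Jak1 changed by 0.45, Jak2 by 0.56 and Irf3 by 0.28, and none of the 3 was called.

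Of 34 measured antiviral effectors 30 rose and none fell, with a median of 3.49, or 3.02 with members dim at 0 h at their bound. Oas2, a synthase of 2-5 oligoadenylates, had -5.13 and -5.02 at 0 h and 2.84 and 2.98 at 24 h, a 254-fold rise. Slfn2 was at least 264-fold higher. Ifit3, of the family that binds foreign RNA, went from -4.63 and -4.33 to 1.19 and 1.29, a 52.7-fold rise. Oasl2 rose 64.4-fold and the ubiquitin-like modifier Isg15 14.6-fold, from 1.43 and 1.26 to 5.26 and 5.18. The members without a call were Ifit2 at -0.07, Herc6 at 0.05, Zc3hav1 at 0.15 and Oas1b at 0.65.

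The promoters of several of these genes show the response element, and 4 of them are printed because the rise of their genes was larger than in the control line. Each stretch lies upstream of the annotated start, is written 5′ to 3′ on the strand of the gene, and comes from RefSeq on GRCm38.p6. Capitals mark the motif, GAAA, any 2 bases and GAAA again, or its reverse complement, overlapping matches included.
Ifit3, chr19:34583348-34583441, plus strand: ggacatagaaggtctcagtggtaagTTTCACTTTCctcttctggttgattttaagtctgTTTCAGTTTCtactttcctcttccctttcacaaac
Ifit1, chr19:34640760-34640838, plus strand: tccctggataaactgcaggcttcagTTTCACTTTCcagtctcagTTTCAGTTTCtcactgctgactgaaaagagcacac
Isg15, chr4:156200850-156200921, minus strand: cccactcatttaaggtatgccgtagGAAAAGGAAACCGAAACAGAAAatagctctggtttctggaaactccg
Tgtp2, chr11:49064248-49064307, minus strand: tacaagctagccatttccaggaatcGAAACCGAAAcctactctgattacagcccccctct
Ifit3 and Ifit1 each hold 2 separate matches, Isg15 holds 3 that overlap and Tgtp2 holds 1. Of 27 antiviral effectors tested that have a promoter in the table, 12 (44.4%) hold the motif within 250 bases before the start, against 2.73% of all genes tested and 3.04% of the 27025 promoters in the table.

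The induction differed between the lines, by the interaction term of the fit, for 20 of these 34 effectors, all larger in the line labelled knockdown. Over all genes 381 (2.36%) had a larger value and 236 (1.46%) a smaller one. Of the 381, 267 were called rises, and 247 of these had a lower mean level at 0 h in this line than in control. In 50 of the 381 no array of this line at 0 h was well above background. A larger value thus need not mean a higher level at 24 h. Ifit1, chosen after its values were seen, was above background on 1 of 2 arrays at 0 h and went from -5.04 and -5.37 to -1.0 and -1.11, while in the control line it changed by -1.32, a difference of 5.47. Ifit3 changed by 5.72 against 0.67 in the control line, a difference of 5.05 ± 0.19 (SE, adjusted p = 0.00133 by limma). In the control line its levels were -3.19 and -3.18 at 0 h and -2.66 and -2.38 at 24 h. The line labelled knockdown was thus lower than control before induction and higher after it. Ifitm1 and Ifitm6, with the largest bounds, had differences between the lines that did not pass the test (-0.77 and 1.11, adjusted p = 0.172 and 0.0898). The count of 20 was 14 with median scaling, and 11 among the effectors above background on all 4 arrays of this line.

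**Figure D4:**
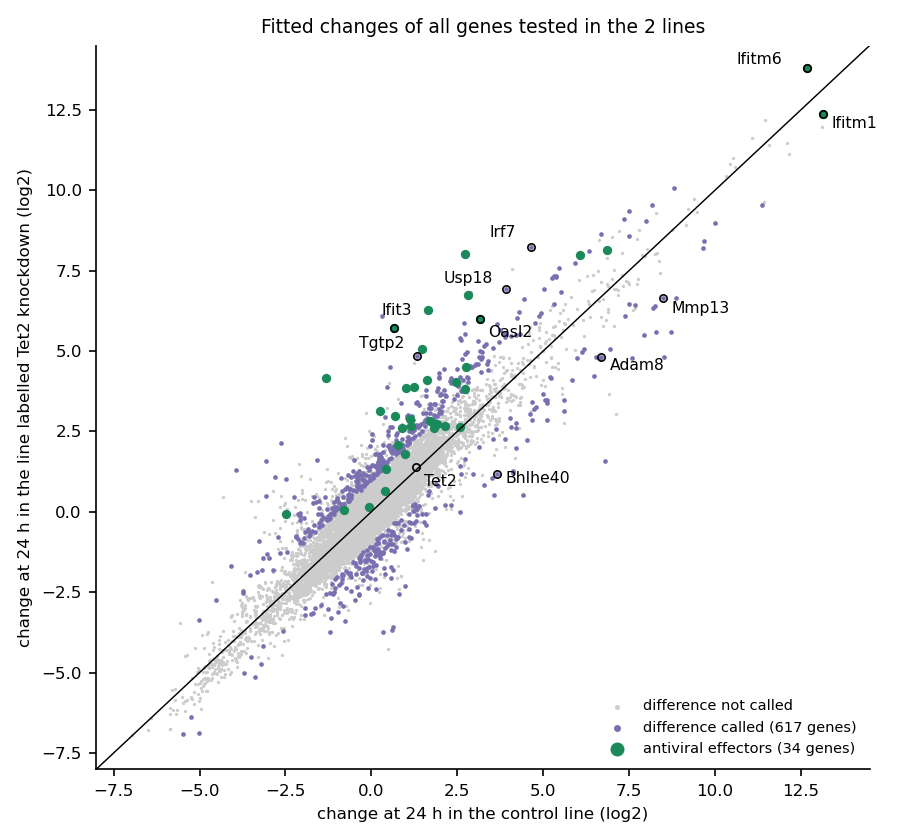
Fitted log2 change at 24 h in the line labelled Tet2 knockdown (vertical) against that in the control line (horizontal) for every gene tested; the diagonal marks equal change. Of 34 antiviral effectors (green), 20 lie among the genes (381 and 236) whose difference was called, and Tet2 lies near the diagonal.

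Sensors of foreign nucleic acid rose in 9 of 14 cases. Dhx58, which encodes LGP2, rose 30.2-fold, and Ifi207 and Ifi211 of the Ifi200 family were at least 131-fold and 95.3-fold higher. Nod1 rose 14.7-fold, and Cgas, the sensor of cytosolic DNA, fell 3.61-fold. Of the interferon-inducible GTPases, which attack pathogen vacuoles, 8 of 10 rose: Gvin1 10.9-fold, Irgm2 6.32-fold, Gbp5 5.69-fold and Igtp 4.17-fold. Tgtp2 rose 28.5-fold, from -2.15 and -2.13 to 2.70 and 2.69. In the control line it went from -1.91 and -1.88 to -0.55 and -0.58.

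All 8 measured genes of MHC class II presentation rose, with a median of 3.15, or 2.45 with members dim at 0 h at their bound. H2-Eb1, a beta chain, had -4.06 and -3.99 at 0 h and 1.07 in both duplicates at 24 h, a 34.1-fold rise. H2-DMa, of the peptide exchange factor, rose 15.4-fold and H2-DMb2 was at least 5.82-fold higher. For class I, 7 of 16 rose (43.8%, against 16.7% of all genes), by small amounts: Tapbp 3.74-fold, H2-D1 3.18-fold, H2-T23 3.14-fold and B2m 2.29-fold. The class I count was 3 with median scaling and 4 with quantile normalization after normexp, so it rests on the scaling.

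Within the B cell programme the transcription factors fell. Of 20 measured, 14 fell and none rose, with a median of -1.52. Bcl7a went from 0.32 and 0.25 to -3.05 and -3.19, a 10.6-fold fall, Lef1 fell 8.77-fold, the repressor gene Bach2 8.37-fold and Myb 6.75-fold. Ebf1 fell by 2.40 on the log2 scale and Pax5, which commits cells to the B lineage, by 1.44. Ikzf1 changed by 0.48 and Tcf4 by 0.68, without a call.

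Of 12 genes of V(D)J recombination and end joining 7 fell and 1 rose. Rag2 and Rag1, the recombinase, fell 30.4-fold and 25.6-fold, and Dntt, terminal transferase, 27.6-fold. Rag1 had 1.45 and 1.55 at 0 h and -3.20 and -3.16 at 24 h. Hmgb2 fell 7.96-fold. Dclre1c, the nuclease Artemis, was the gene that rose, by 5.84-fold.

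Most genes of the pre-B receptor and its signalling did not pass the test. Of 21 measured, 3 (14.3%) fell and 2 (9.52%) rose, against 15.4% and 16.7% of all genes. Il7r, the receptor for the main growth factor of pre-B cells, fell 5.75-fold, Cd24a 3.94-fold and Vpreb2 by 1.27 on the log2 scale. Cd79a had 4.92 and 4.85 at 0 h and 4.91 and 4.82 at 24 h. Vpreb1, a surrogate light chain, changed by -0.30. Bst1, an ectoenzyme that myeloid cells express too, rose 42.5-fold and Bank1, an adaptor of B cell receptor signalling, 5.48-fold. With median scaling 5 members fell.

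Cell cycle genes fell. Of 36 genes of DNA replication and nucleotide supply 35 fell, with a median of -3.76, and Gins3 changed by 0.13. The helicase subunit genes Mcm2 to Mcm7 changed by between -3.60 and -4.99. Of 31 mitotic genes 30 fell, with a median of -4.30, and Cenpf changed by -0.63. Kif11, a spindle motor, went from 0.83 and 0.62 to -4.82 and -4.91, a 48.2-fold fall. Nuf2 fell 40.3-fold, Ccna2, cyclin A, 37.6-fold and Top2a 36.3-fold. No member of either list rose.

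A pair of E2F-type motifs, TTTCCCGC and TTTGGCGC, were searched for in the same promoters, since E2F factors control S phase genes. They stand in 3.09% and 1.61% of the promoters of genes that fell, against 1.73% and 0.831% of all genes tested. Of 28 replication genes with a promoter, 3 hold each. The promoters of Mcm6 and Mcm7 are shown as examples of a double and a single match, with the motif or its reverse complement in capitals, upstream of the start on GRCm38.p6.
Mcm6, chr1:128359720-128359840, minus strand: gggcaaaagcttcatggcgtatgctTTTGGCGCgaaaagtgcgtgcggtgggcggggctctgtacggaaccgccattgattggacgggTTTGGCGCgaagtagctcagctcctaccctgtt
Mcm7, chr5:138172016-138172073, minus strand: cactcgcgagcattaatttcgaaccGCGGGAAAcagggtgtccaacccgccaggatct
Mcm6 changed by -3.81 and Mcm7 by -4.99. Gins3, the replication gene that was not called, holds a match in this window too.

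The regulators of the cycle were divided. Of 13 G1 cyclins, kinases and inhibitors, 6 rose and 6 fell (46.2% each, against 16.7% and 15.4% of all genes). Cdkn1a, the p21 inhibitor, rose 14.9-fold from -0.99 and -1.09 to 2.97 and 2.75, and Cdkn2b, the p15 inhibitor, 8.92-fold. Ccnd1, cyclin D1, rose 6.70-fold although it promotes the cycle. Ccne1, cyclin E1, fell 8.91-fold, from 2.68 and 2.80 to -0.45 and -0.38. Of 13 E2F and RB family genes 8 fell and none rose, among them Rbl1 (12.8-fold), E2f2 (8.59-fold) and E2f8 (5.97-fold). The direction of E2f7 depended on the probe: the one with the highest mean, not above background at 24 h, had a fitted change of -6.88, and the one above background on all 4 arrays by 0.26.

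Of 30 members of the MYC and ribosome biogenesis list 21 fell and 2 rose. Mxd3 fell 7.45-fold, the nucleolar genes Gnl3 and Dkc1 6.03-fold and 5.51-fold, and Myc by 1.40 on the log2 scale. The 2 that rose, Mxd4 (8.63-fold) and Mxd1 (3.64-fold), encode antagonists of MYC. Of 43 mitochondrial ribosomal proteins 11 fell (25.6%, against 15.4% of all genes), and 18 fell with median scaling. The 11 included Mrps22 (2.69-fold), Mrpl42 (2.62-fold), Mrpl47 (2.54-fold) and Mrps5 (2.53-fold). Chaperones fell in 11 of 22 cases (50%, against 15.4% of all genes), with Hspd1 4.18-fold, Hsph1 3.65-fold, Dnajc2 3.0-fold and Hspa14 2.89-fold lower. None of 42 cytosolic ribosomal proteins or 35 genes of oxidative phosphorylation was called. The ribosomal proteins all had changes between 0.04 and 0.69, and their median of 0.48 became 0.02 after normexp and quantile normalization.

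Of 27 genes of glucose uptake and glycolysis 16 rose and 2 fell. Slc2a6, a glucose transporter relative of lysosomes, went from -0.79 and -0.62 to 6.40 and 6.46, a 140-fold rise. For Hk3, which encodes a hexokinase, the rise was at least 142-fold and for Eno2 at least 22.6-fold, and Slc16a3, a lactate exporter, rose 10.73-fold. Pfkfb3 and Aldoc fell 2.47-fold and 2.18-fold. In lipid storage and eicosanoid synthesis 12 of 16 rose: Apoc2 by 83.8-fold, Ptgs2, cyclooxygenase 2, by at least 32.9-fold, Alox5ap by 12.5-fold and Dgat2 by 10.5-fold. Fabp5 fell 8.35-fold. Cholesterol and fatty acid synthesis showed 2 rises among 27 genes (7.41%, against 16.7% of all genes), with Mvd 2.56-fold higher.

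In iron handling 5 of 13 rose (38.5%, against 16.7% of all genes). Among them Slc11a1, the phagosomal metal transporter, was 31.9-fold, Blvrb 4.03-fold and Hmox1 3.13-fold higher. Tfrc, the transferrin receptor of dividing cells, fell 7.96-fold, from 1.82 and 1.77 to -1.15 and -1.24. The list of NRF2 targets and redox enzymes held 5 rises (26.3%) and 4 falls (21.1%) among 19, against 16.7% and 15.4% of all genes. Srxn1 rose 18.8-fold, G6pdx 8.92-fold and Prdx5 5.64-fold, whereas Gclc fell 3.71-fold, Cat 2.25-fold, Prdx6 2.09-fold and Gclm 2.07-fold. In the BCL2 family 7 of 14 rose (50%) and 1 fell (7.14%), against 16.7% and 15.4% of all genes. The pro-apoptotic Bmf rose 18.4-fold and Pmaip1 5.83-fold, the survival gene Bcl2a1d 6.94-fold, and Bok fell 13.4-fold.

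Chromatin modifiers were described separately because the hairpin targets one of them. Of 18 TET, DNMT and related genes 4 rose (22.2%) and 3 fell (16.7%), near the shares of all genes, and 5 fell with median scaling. Besides Tet2, the rises were Gadd45b at 12.9-fold, Gadd45g and Idh1. Tet1 changed by 0.93 and Tet3 by 0.48 without a call. Uhrf1, which guides maintenance methylation at replication forks, fell 17.4-fold from 4.59 and 4.54 to 0.43 and 0.46. Dnmt1, the maintenance methyltransferase, fell 7.73-fold and Dnmt3b 4.76-fold, and neither fall differed from that of the control line by more than 0.06. Of 24 Polycomb subunits 33.3% fell and 4.17% rose, against 15.4% and 16.7% of all genes. The 8 that fell included Phf19 (13.1-fold), Ezh2 (5.21-fold), Mtf2 (4.57-fold) and Pcgf6 (4.09-fold), and Phf1 rose 3.19-fold. Among 15 phosphatases that limit MAP kinases, 20% rose and 20% fell, near the shares of all genes, with 3 rises (Dusp16 3.73-fold, Dusp1 3.06-fold, Dusp3 2.92-fold) and 3 falls (Dusp2 2.63-fold among them).

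Markers of other blood and stromal cells were measured in part. In the T and NK cell list 9 of 19 were not tested. Of the 10 tested, 3 (30%) rose and 1 (10%) fell, against 16.7% and 15.4% of all genes. Cd4 rose 2.26-fold, Nkg7 2.15-fold and Klrb1c at least 5.21-fold, and Cd5 fell 2.04-fold. Without 1 array of this line the rises in this list numbered 1 to 5: 1 without array 1 at 0 h or array 2 at 24 h, and 5 without either other array. The list's summed linear level was 7.13 and 8.14 at 0 h and 8.78 and 10.6 at 24 h. For red cells and megakaryocytes 7 of 14 were tested, with Nfe2 46.4-fold and Gp9 7.14-fold higher and Tal1 2.39-fold lower. Only 2 of 13 mast cell markers were tested, and Hdc rose 2.10-fold.

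In the dendritic cell list 6 of 12 were not above background. The list's median was 1.96, and 0.53 with no filter on dim probes, against 0.49 of all genes there. Of the 6 tested, 4 rose, against 16.7% of all genes. These were Clec9a by at least 11.7-fold, Flt3 by 7.80-fold, Bst2 by 4.19-fold and Batf3 by 3.60-fold. Of 9 stromal markers 5 were tested and 4 rose: Sparc 44.6-fold, Acta2 21.0-fold, Pdgfrb at least 5.0-fold and Vim 3.38-fold. The stromal median was 4.10, and 1.09 with no filter on dim probes. The stromal sum was 21.7 and 23.1 at 0 h and 82.9 and 82.0 at 24 h. In the list of mature B and plasma cell markers Cd38 rose 8.49-fold, Prdm1 4.71-fold, Sdc1 3.99-fold and Fcer2a 2.40-fold, and Irf4 and Cr2 fell 2.27-fold and 2.22-fold. The part of such cells in the results above was not tested. Of 16 reference genes 13 were not called, Pgk1 and B2m rose 3.39-fold and 2.29-fold and Tfrc fell. Actb changed by 0.80 ± 0.23 (SE) and Gapdh by 0.61 ± 0.15 (SE), both under 2-fold.

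Called genes were also counted by position, in windows of 1 Mb on mm9. Windows were ranked by the number of calls, which favours windows with many genes. The median window held 5 tested genes, and of all genes tested 16.7% rose and 15.4% fell. The 5 windows with most rises include the MHC. The window chr17:35000001-36000000 held 22 rises and 14 falls among 63 genes, with Tnf, Lta, Ltb, Lst1 and Aif1 among the rises. The next window towards the centromere, chr17:34000001-35000000, held 20 rises and 2 falls among 56 genes, with the class II genes and the complement gene C4b. A window with Elane, Prtn3 and Plppr3 on chromosome 10 held 16 rises among 54. One with the Ifitm cluster and Irf7 on chromosome 7 held 14 among 37, and another on chromosome 7 held 17 among 57. Falls were most numerous, after the MHC window, in 2 windows over the histone cluster of chromosome 13, with 12 of 26 and 11 of 18 genes. The first also held 4 rises, including the histone genes H1f2, H2bc4 and H2bc8. The second held none, and H1f5 was among its falls.

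**Figure D5:**
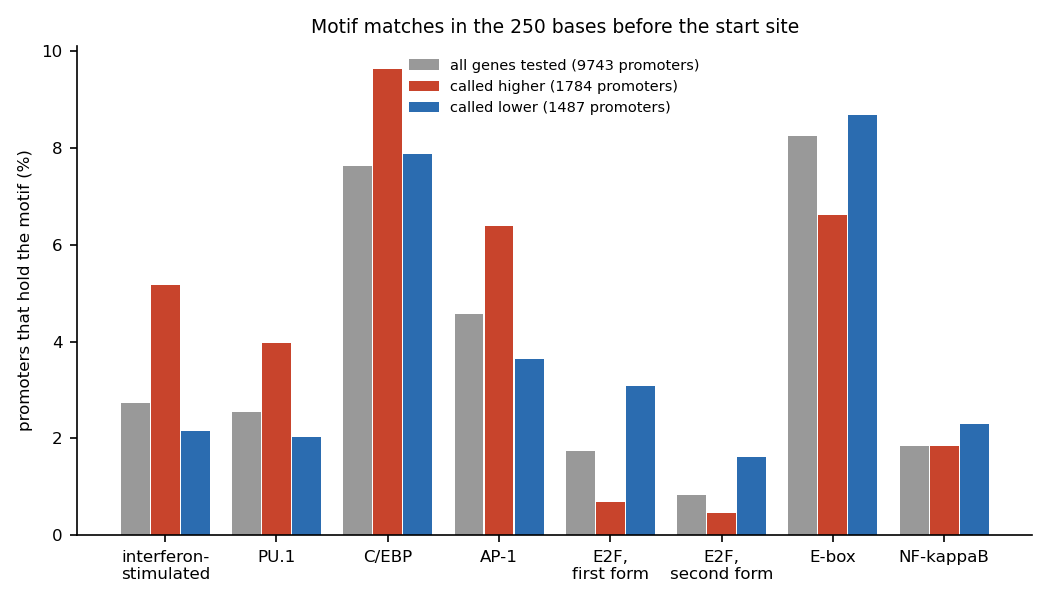
Share of promoters (vertical axis, percent, from 0) that hold each of 8 motifs within 250 bases before the start site, for all genes tested (grey, 9743 promoters), genes that rose (red, 1784) and genes that fell (blue, 1487) in the line labelled Tet2 knockdown. The interferon motif stands in 5.16% of genes that rose and 2.15% of genes that fell, and the first E2F motif in 0.673% and 3.09%.

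The motif shares are descriptions of these windows and were not tested. TTGCNNAA, a core form of the C/EBP site, stood in 9.64% of the promoters of genes that rose, 7.87% of those that fell and 7.64% of all tested. GAGGAAGT, a PU.1 form, stood in 3.98%, 2.02% and 2.54%, and in 6 of 22 promoters (27.3%) of the granule protein and Fc receptor lists. The C/EBP motif also stood in 6 of these 22 promoters (27.3%). TGANTCA, the AP-1 site, stood in 6.39%, 3.63% and 4.57%. CACGTG, the E-box of MYC and USF, was in 6.61%, 8.68% and 8.25%. CCAAT, the NF-Y site, was in 35.2%, 43.0% and 36.8%, GGGANTTCC, an NF-κB form, in 1.85%, 2.29% and 1.84%, and TTTGAA, the cell cycle homology region, in 10.3%, 13.9% and 11%. Both strands were searched for each. Over all 27025 promoters in the table the shares were 9.55% for C/EBP, 2.44% for PU.1, 6.87% for AP-1 and 6.05% for the E-box. They were 34.5% for NF-Y, 1.42% for NF-κB and 16.3% for the cell cycle homology region. The C/EBP share of genes that rose was thus close to that of the table, and the AP-1 share was below it. The promoter of Prtn3 is printed for its PU.1 match and that of Il6 for its C/EBP match, in capitals, on GRCm38.p6.
Prtn3, chr10:79879547-79879604, plus strand: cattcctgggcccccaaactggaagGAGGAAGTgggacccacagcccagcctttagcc
Il6, chr5:30012961-30013018, plus strand: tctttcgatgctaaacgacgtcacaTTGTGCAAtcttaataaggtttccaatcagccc

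Most of the induction was common to the lines. Of the 5194 genes called in the line labelled knockdown, 3779 (72.8%) were called in the same direction in the control line. The genes with the most positive difference on 8 measured arrays were Ifit3, Tgtp2, Usp18 (6.92 against 3.93), Oasl2 (6.01 against 3.16), BC048373 (5.53 against 2.72), Csprs (5.34 against 2.61), Isg15 (3.87 against 1.25) and Gm9706 (3.84 against 1.28). The most negative were Bhlhe40, a repressor of the circadian and hypoxia response, 3 unnamed probes, Slc25a15, Adam8, LOC676974 and Mmp13. Bhlhe40 went from -2.28 and -2.41 to -1.16 and -1.20, against -3.38 and -3.31 to 0.34 and 0.27 in the control line, a difference of -2.49. Slc25a15 changed by 0.21, with no call, against 2.14. The metalloproteinase genes Adam8 and Mmp13 rose in this line by 4.81 and 6.65 and in the control line by 6.69 and 8.48.

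The counts of differing genes depended on the scaling and on single arrays, and more so than the counts of the induction. The induction had 2172 rises and 3386 falls with median scaling, in place of 2700 and 2494. For the difference, median scaling gave 102 genes with a larger and 110 with a smaller value, in place of 381 and 236. Without control array 1 at 0 h the smaller values numbered 150, without control array 1 or 2 at 24 h they numbered 135 or 154, and without array 2 of this line at 24 h they numbered 155, in place of 236.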

How the data were processed

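The 8 samples were hybridised to 1-colour Agilent arrays (design 026655) from 500 ng of total RNA labelled with Cy3, per the labels' protocols. Per the file headers, spots were read by Feature Extraction 10.7.3.1, and probe positions are on mm9 (NCBI 37). The deposited intensity of each spot is a processed signal from which the software had subtracted a fitted background surface, with no scaling between arrays. Values in the deposited table are log2, and each column's median is 6.84. It was matched by normexp correction (offset 50) of the mean signal and quantile normalization; the submitters' processing notes name limma.

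Levels are log2 of the processed signal over the 75th percentile of all spots other than controls. Outlier spots were dropped, which left 21 missing values on the 4 arrays of the line labelled knockdown, and repeated spots were averaged. Probes well above background on both duplicates of any group were retained, 20306 in all, and the brightest retained probe represents each of 16153 genes. Names come from RefSeq for 11620 genes through an accession, 580 through the symbol and 89 through an older symbol. The file's own name was kept for 3864. Of called genes, 1121 had another kept probe, and 12 of these had one called in the opposite direction.

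limma 3.58.1 in R 4.3.3 fitted 4 group means to all 8 arrays (4 residual and 1.51 prior degrees of freedom). Tests were 2-sided, with Benjamini-Hochberg adjustment over all genes. A gene rose or fell where adjusted p was under 0.05 and the change at least 2-fold. On simulated data the fit returned the changes put in with few false calls, but it missed some of the changed genes. A minimum share of calls first required there was not met for the smaller changes and was dropped after that result. Replicate 1 of every group is on slide 1 and replicate 2 on slide 2, per the file headers, and the differences between duplicates correlated between groups at 0.298 to 0.413, so the numbers pair the arrays.

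The members, the 53 gene lists (904 of 1066 members tested) and the motifs were chosen with earlier results of these data known. Named genes follow fixed rules. These were the 15 largest rises and falls on 4 measured arrays, the 10 and 5 largest bounds, the 4 largest called members of each list with every called member against its majority, Tet2, Cebpa, Actb and Gapdh, the 8 largest differences each way, and called genes of the fullest windows. Other list members were named after their values were seen, and some genes that the rules select are not reported here. Alternatives were other scalings, background corrections, filters, probe summaries, priors, blocks and thresholds, and leaving out each array. Promoters come from RefSeq on GRCm38.p6; 9743 genes tested had one.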

Additional observations from a re-analysis of the deposited data

Results flagged for a closer look

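The genes named here whose induction differed between the lines by the interaction term (limma, adjusted p under 0.05 and at least 2-fold) number 76, of which 52 had a larger value in the line labelled knockdown and 24 a smaller one, with 1 of the larger values not reported here, beside 381 and 236 over all genes. Values are differences of log2 changes, this line minus control, and those of genes not above background at 0 h are fitted values. Such a value does not tell a difference between the lines at 0 h from one at 24 h. For Lyz2 the mean level was -0.63 in this line and 0.32 in control at 0 h, and 8.42 and 8.32 at 24 h.

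Larger by over 2 were Ifit3 (5.05), Irf7 (3.58), Tgtp2 (3.5), Usp18 (2.99), Oasl2 (2.85), BC048373 (2.81), Csprs (2.73), Isg15 (2.62), Gm9706 (2.56), Flt3 (2.34), Bmf (2.23), Dhx58 (2.18), the unnamed probe A_55_P2038452 (2.11), Slc16a3 (2.10) and Gbp5 (2.03). Interferon and antigen presentation genes with smaller values were Oas2 (1.93), Ifi207 (1.87), H2-Eb1 (1.56), Irgm2 (1.39), H2-Oa (1.31), Slfn2 (1.28), Bst2 (1.28), Irf9 (1.12), Cd74 (1.10) and Tap1 (1.05). Myeloid receptors, granule genes and cytokines were Clec10a (1.80), Cd300ld (1.79), P2ry6 (1.75), Ebi3 (1.87), Ccl3 (1.66), Fcgr1 (1.36), Tyrobp (1.24), Tlr1 (1.15) and Lyz2 (1.05). In the MHC windows they were C4b (1.96), Lst1 (1.79), Aif1 (1.30), Ltb (1.23) and Lta (1.21). The others were Cyp4f18 (1.98), Klrb1c (1.95), Plppr3 (1.91), Hdc (1.68), Eno2 (1.66, but below 0 with normexp background correction), Batf3 (1.51), Sparc (1.41), Kiss1r (1.35), Pmaip1 (1.31), H1f4 (1.23), Gp9 (1.23) and Nfe2 (1.21).

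Smaller were Bhlhe40 (-2.49), Anxa2 (-2.41), the unnamed probes A_55_P2126557 (-2.28), A_55_P2211164 (-2.27) and A_55_P2238406 (-2.10), Srxn1 (-2.23), Clec4d (-2.23), Slc25a15 (-1.93), Adam8 (-1.87), E2f7 (-1.86), LOC676974 (-1.86), Mmp13 (-1.83), Lilrb4a (-1.80) and Dgat2 (-1.72). Between -1.6 and -1.0 were Msr1 (-1.57), Ccne1 (-1.45), Tfrc (-1.36), the unnamed probe NAP097965-001 (-1.32), Cd36 (-1.25), Megf10 (-1.13), Fosl2 (-1.12), Tfec (-1.06), Ccl6 (-1.02) and Il1r2 (-1.0). Groups of 2 arrays are too small for a test of outlying samples.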

How the results depend on the processing

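Counts of the induction stayed within 1.5 times of 2700 rises and 2494 falls under each other scaling, correction, filter, probe summary, prior and array set tried; without 1 array they ran from 2587 to 2754 and from 2349 to 2503. Without the 2-fold threshold they were 5851 and 5165, and with a 4-fold one 1097 and 866. The differences between the lines (381 larger, 236 smaller) moved more: 102 and 110 with median scaling, 208 and 71 with normexp and the 75th percentile, 178 and 110 with normexp and quantile normalization and with the deposited table, 95 and 26 with no filter on dim probes, and 111 smaller ones with probes above background on all 4 arrays of this line. Without a fold threshold they were 1487 and 1139, and without 1 array 258 to 382 and 135 to 272. With the slide as replicate block the pairing gave 2741 and 2527 for the induction and 417 and 258 for the difference, and changed no call of a named gene. Of 368 named genes, 333 kept their induction call with the deposited table and 344 with median scaling. Of the 76 named differences, 42 kept their call with median scaling, 31 with no filter on dim probes, 51 with normexp and the 75th percentile, 52 with the deposited table and 52 to 71 without 1 array. Directions reversed for Eno2, whose difference became -0.21 with normexp and the 75th percentile and -0.34 with normexp and quantile normalization or the deposited table, and for E2f7, where another probe gave an induction of 0.26 and a difference of 0.0108; the cause was not tested for Eno2. The median of 5 of 53 lists changed sign with the scaling: G1 regulators, oxidative phosphorylation, cholesterol synthesis, TET and DNMT genes and MAP kinase phosphatases. Among lists with 5 or more calls one way, the iron list went from 5 rises to 3 with median scaling or quantile normalization and the mature B cell list from 5 to 3 with normexp and quantile normalization. With fewer genes tested, those above background on all 4 arrays of this line, 17 antiviral effectors, 7 Fc receptors and adaptors, 4 inhibitory receptors, 3 lectins, 6 granule proteins and 4 chemokines rose. Over all genes 2205 of 13987 rose there. In the same order, 21, 9, 6, 5, 7 and 6 members had their main probe above background on all 4 arrays, so the lists were smaller there. Signal over background limits the folds of genes dim at 0 h or 24 h to bounds.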
